A study of Homo sapiens with 2 samples.

Results

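The enzymes and binding proteins that write, read and erase DNA methylation are described here by the transcripts of 10 genes, *DNMT1*, *DNMT3A*, *DNMT3B*, *DNMT3L*, *UHRF1*, *UHRF2*, *TET1*, *TET2*, *TET3* and *TDG*. The genes were taken by name, and all 10 were found in both tables, each in a single row, among 33538 listed genes. Both mock- and DAC-treated cells had at least 1 UMI for 9 of them, and the same 9 reached 100 UMIs over both libraries, the minimum used for counts of genes. The questions were how each gene differed after DAC treatment, and whether *DNMT1* and *UHRF1* were also higher between cells of the same cell cycle state.

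HCT116, an established epithelial line from a human colon carcinoma, was treated with 0.5 μM of decitabine (DAC), or mock-treated, and analyzed by single-cell RNA-sequencing of transcript 3' ends. Harvest on day 7 came after a last dose on day 3 (the first was on day 1) and a change to drug-free medium on day 5. The counts thus describe cells after a period without the drug. Each condition had 1 library. The mock-treated library held 49911689 UMIs (unique molecular identifiers, 1 for each captured transcript molecule) in 1783 cells, and the DAC-treated library held 59046165 UMIs in 1751 cells. Without replicate libraries no test between the conditions was possible, and all intervals are 95% intervals that cover counting error only.

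Methylation of CpG sites is copied at each replication by DNMT1, which UHRF1 recruits to the half-methylated sites behind the fork, while DNMT3A and DNMT3B methylate new sites with the help of the catalytically inactive DNMT3L. TET enzymes oxidize the methyl mark, and TDG cuts out the oxidized bases for repair. DAC is a cytidine analog that is built into replicating DNA and traps the methyltransferases there as protein, a loss that transcript counts do not show, and transcripts of *DNMT1* and *UHRF1* are known to be more abundant in proliferating cells.

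The labelled cell line was checked against marker genes. All 7 epithelial markers were detected in both libraries, and their summed level was 5337 CPM (a gene's UMIs over all UMIs of the library, scaled alike in both) in mock-treated and 8168 CPM in DAC-treated cells, with *KRT18* the most abundant at 101301 and 252746 UMIs. The higher sum came from *KRT18* and *KRT8*, while 3 of the 7 markers were lower by 1.5-fold, *EPCAM* (0.636), *CLDN4* (0.314) and *LGALS3* (0.596), and the median log2 ratio of the list was -0.13. Markers of other cell types were scarce in mock-treated cells. Fibroblast markers summed to 10.9 CPM, with 3 of 6 at 0 and nearly all of the UMIs from *COL1A1*. Leukocyte markers summed to 0.28 CPM, with 2 of 5 at 0, among them *PTPRC*, and endothelial markers to 0.120, with 2 of 3 at 0. In DAC-treated cells none of these 14 genes was at 0, and the sums were 19.95, 1.52 and 1.91 CPM. The most abundant were *COL1A1* with 1112 UMIs, *LYZ* with 31 and *VWF* with 62. The part of other cells in these sums was not tested.

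*DNMT1*, the maintenance methyltransferase, was by far the most abundant of the 10 genes. In the mock-treated library it had 5731 UMIs (5584 to 5881), or 115 CPM (112 to 118), and in the DAC-treated library 12758 UMIs (12538 to 12981), or 216 CPM (212 to 220). The level was 1.88-fold higher in DAC-treated cells (1.82 to 1.94, log2 ratio 0.91). *UHRF1*, which binds half-methylated CpG sites and brings DNMT1 to them, had the largest ratio of the 9 genes. It had 867 and 2792 UMIs in mock- and DAC-treated cells, 17.4 CPM (16.2 to 18.6) and 47.3 CPM (45.5 to 49.1), which was 2.72-fold higher after DAC (2.52 to 2.94, log2 ratio 1.44). The counts of both genes lay far apart between the libraries relative to their counting error.

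The median gene was also shifted, with 8549 genes above a ratio of 1 and 4998 below it. Over 13547 genes with 100 UMIs or more, the median ratio of DAC- to mock-treated cells was 1.18, and scaling by the median of ratios in place of the total UMIs lowered every log2 ratio by 0.24. Relative to that shift, *DNMT1* was 1.59-fold higher (1.55 to 1.65) and *UHRF1* 2.31-fold higher (2.14 to 2.49). Of the genes with 100 UMIs or more, 18.4% had a ratio as large as that of *DNMT1* and 9.49% as large as that of *UHRF1*, so neither ratio was extreme among all genes.

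Because both genes differed in the same direction, their promoters were read from RefSeq (build GRCh38.p14), which held 300-base windows, from 250 bases before to 50 after a transcription start, for 9 of the 10 genes. *DNMT3L* was not matched. The windows were searched on both strands for 4 words, TTTCCCGC, TTTCGCGC, TTTGCCGC and TTTGGCGC, that spell out the consensus of the E2F factors of the cell cycle. The words were chosen with the windows in view, and matches can overlap. A match was present in the single *DNMT1* window, in 2 of the 3 *UHRF1* windows, and in none of the windows of the other 7 matched genes. Of all 35116 windows, 3.31% held a match, and 3.99% of 27305 genes had at least 1 window with it. Stretches of 30 bases follow, written 5′ to 3′ with the match in capitals, which in all but the second *UHRF1* stretch is the reverse complement of a word. *PCNA*, a replication gene that also marks S phase, was added for comparison. The other *PCNA* window and the *TOP2A* window had no match, the 2 overlapping *CDK1* windows shared 1 match, and *MCM5* was not in the table.
DNMT1, chr19:10194937-10194966, minus strand: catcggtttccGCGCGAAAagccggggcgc
UHRF1, first window, chr19:4909476-4909505, plus strand: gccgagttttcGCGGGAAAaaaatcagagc
UHRF1, second window, chr19:4909973-4910002, plus strand: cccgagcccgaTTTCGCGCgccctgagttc
PCNA, chr20:5126663-5126692, minus strand: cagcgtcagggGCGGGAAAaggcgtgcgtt

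The matches began 2 bases before the annotated start of *DNMT1*, 14 and 160 bases before the starts of *UHRF1* and 59 bases before that of *PCNA*. The *DNMT1* stretch and the first *UHRF1* stretch also lay within exons annotated in GENCODE release 44. Counts of 3' ends do not tell which start was used, and a match of letters is a description of the window only.

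The de novo enzymes were present at low levels. *DNMT3A* had 369 and 359 UMIs in mock- and DAC-treated cells, 7.39 and 6.08 CPM, a ratio of 0.822 (0.709 to 0.954). *DNMT3B* had 455 and 532 UMIs, 9.12 and 9.01 CPM, a ratio of 0.988 (0.870 to 1.12) whose interval included 1. Relative to the shift of the median gene, the ratios were 0.697 (0.601 to 0.808) for *DNMT3A* and 0.838 (0.738 to 0.951) for *DNMT3B*. Both were below 1 beyond counting error, so the reading for *DNMT3B* depended on the scaling. *DNMT3L*, which is normally restricted to germ cells and early embryos, had 0 UMIs in mock-treated cells, which allows up to 0.0739 CPM, and 2 UMIs in 2 DAC-treated cells, so no ratio was given. No change of *DNMT3L* was detectable at this depth, although 18 of 30 listed cancer-testis genes went from 0 UMIs in mock-treated cells to some in DAC-treated cells. Among genes with 100 UMIs or more, 13 of 25 cancer-testis genes had 0 UMIs in mock-treated cells, beside 202 of all 13547 genes. Genes at 0 in mock-treated cells passed this minimum through their DAC-treated counts alone. The list was also chosen with earlier results of these data known, so these counts are a description only.

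*UHRF2*, the paralog of *UHRF1*, had 669 and 905 UMIs in mock- and DAC-treated cells, 13.4 and 15.3 CPM. Its ratio was 1.14 (1.03 to 1.27). It turned to 0.969 (0.876 to 1.07) relative to the shift of the median gene and fell below 1 with the mean of the CPM of single cells. The ratios of the paralogs thus differed by more than their counting error.

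Among the erasers, *TET1* was lower and *TET2* and *TET3* were higher in DAC-treated cells under every scaling. *TET1* had 341 and 263 UMIs in mock- and DAC-treated cells, 6.83 and 4.45 CPM, a ratio of 0.652 (0.553 to 0.768). *TET2* had 303 and 541 UMIs, 6.07 and 9.16 CPM, a ratio of 1.51 (1.31 to 1.74). *TET3* had 231 and 410 UMIs, 4.63 and 6.94 CPM, a ratio of 1.5003 (1.27 to 1.77). In mock-treated cells *TET1* and *TET2* had overlapping intervals and *TET3* was lowest, whereas in DAC-treated cells *TET2* was highest and *TET1* lowest, without overlap among the 3 genes. *TDG*, the glycosylase that cuts out the oxidized bases, had 1534 and 2578 UMIs, 30.7 (29.2 to 32.3) and 43.7 (42.0 to 45.4) CPM, and its ratio was 1.42 (1.33 to 1.51).

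With a threshold of 1.5-fold, 4 of the 9 genes with 100 UMIs or more were higher (*DNMT1*, *UHRF1*, *TET2* and *TET3*), compared with 31.0% of all 13547 genes, and 1 was lower (*TET1*), compared with 14.2%. *TET2* and *TET3* lay just inside the threshold, as did *TET1*, and *TDG* lay just outside, so the count depended on small differences. After median-of-ratios scaling only *DNMT1* and *UHRF1* were past 1.5-fold upward. The median log2 ratio of the 9 genes was 0.51, compared with 0.24 for all genes.

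**Figure D1:**
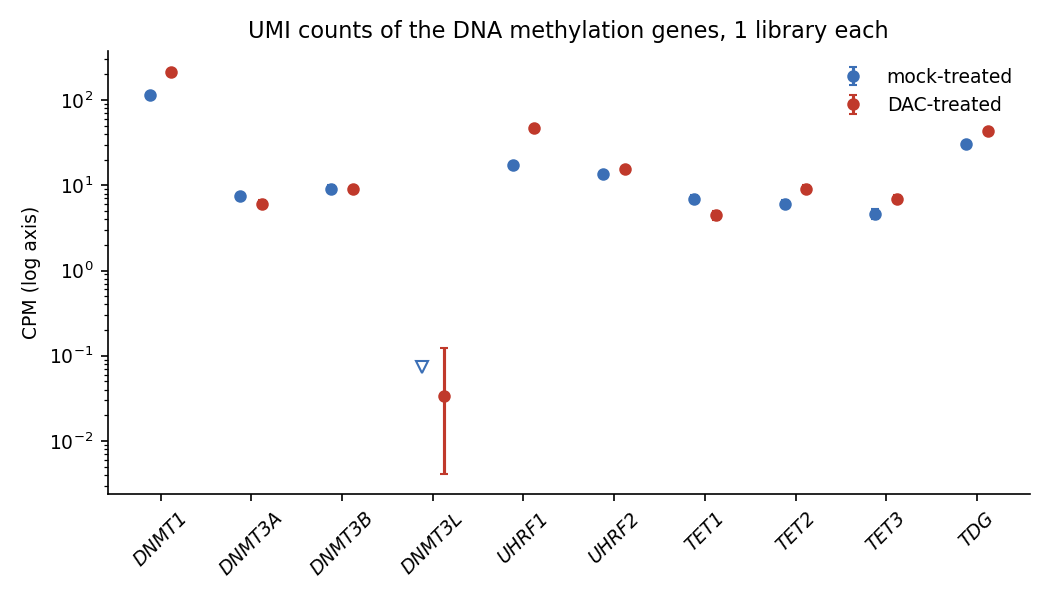
CPM (log axis) of the 10 genes in the mock-treated (blue) and DAC-treated (red) libraries, with exact Poisson 95% intervals, many of which are smaller than the points. The open triangle is the upper limit for *DNMT3L* at 0 UMIs. *DNMT1* was the most abundant gene in both libraries (115 and 216 CPM), and *UHRF1* showed the widest gap among the genes with 100 UMIs or more (17.4 and 47.3).

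Since 1 UMI stands for 1 transcript molecule whatever its length, levels can be ordered between genes on this scale, apart from differences in capture. In mock-treated cells, the order of CPM was *DNMT1*, *TDG*, *UHRF1*, *UHRF2*, *DNMT3B*, *DNMT3A*, *TET1*, *TET2* and *TET3*, and the intervals of the neighbors *DNMT3A* and *TET1*, and of *TET1* and *TET2*, overlapped. In DAC-treated cells the order was *DNMT1*, *UHRF1*, *TDG*, *UHRF2*, *TET2*, *DNMT3B*, *TET3*, *DNMT3A* and *TET1*, and the intervals of *TET2* and *DNMT3B*, and of *TET3* and *DNMT3A*, overlapped. *UHRF1* and *TDG* thus changed places. The sum over all 10 genes was 210 CPM in mock-treated and 358 CPM in DAC-treated cells.

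The difference was also visible cell by cell. *DNMT1* was detected in 67.2% of mock-treated cells (65.0 to 69.4%) and in 75.0% of DAC-treated cells (72.9 to 77.1%). To compare cells at equal depth, 10000 UMIs were drawn at random from each cell, which kept 1388 mock-treated cells (77.8%) and 1293 DAC-treated cells (73.8%) and left out shallower ones. Before thinning, the kept cells had medians of 31501.5 and 43906 UMIs. At equal depth, *DNMT1* was detected in 54.5% of mock-treated (51.8 to 57.1%) and 78.9% of DAC-treated cells (76.6 to 81.1%), and 5 or more *DNMT1* UMIs were present in 3.31% (2.44 to 4.40%) and 10.5% (8.90 to 12.3%). *UHRF1* was detected in 13.0% (11.2 to 14.9%) and 32.2% (29.6 to 34.8%), compared with 26.2% and 50.6% of all cells without thinning. The whole distribution of *DNMT1* counts was thus higher, and the highest count in any cell was similar, 40 UMIs in mock-treated and 46 in DAC-treated cells without thinning. A background of free RNA could not be read from cells that lack these genes, since both libraries hold a single cell line.

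DAC-treated cells also had more transcripts of proliferation genes, so the cell cycle state was taken into account. The S phase pair, *PCNA* (the sliding clamp of DNA polymerases) and *MCM5* (a subunit of the replicative helicase), was 3.03-fold (2.91 to 3.15) and 2.07-fold (1.96 to 2.19) higher in DAC-treated cells. The G2/M pair, *TOP2A* (a topoisomerase) and *CDK1* (the mitotic kinase), was 2.31-fold (2.21 to 2.40) and 1.68-fold (1.61 to 1.76) higher. Thinned cells were divided into 4 states by the medians of each pair over both libraries, which were 1 UMI for the S pair and 0 UMIs for the G2/M pair, so that cells above these were high. None of the 10 genes was used to define a state.

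The libraries differed widely in their mix of states. In mock-treated cells, 63.0% (60.4 to 65.5%) were low in both pairs, 8.21% were high in the S pair only, 17.6% in the G2/M pair only and 11.2% (9.62 to 13.0%) in both. In DAC-treated cells the shares were 24.5% (22.2 to 27.0%), 13.1%, 19.5% and 42.8% (40.1 to 45.6%). Without thinning, 57.4% of mock-treated and 19.03% of DAC-treated cells were low in both, and 16.7% and 59.6% were high in both. These states are ranges of sparse counts and not cell types. The S pair was at 1 or 2 UMIs in 480 mock-treated and 457 DAC-treated cells, and the G2/M pair at 0 or 1 UMI in 1141 and 688, so many cells lay next to a limit. Cells high in the G2/M pair only had medians of 0 and 1 UMI of the S pair in mock- and DAC-treated cells.

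**Figure D2:**
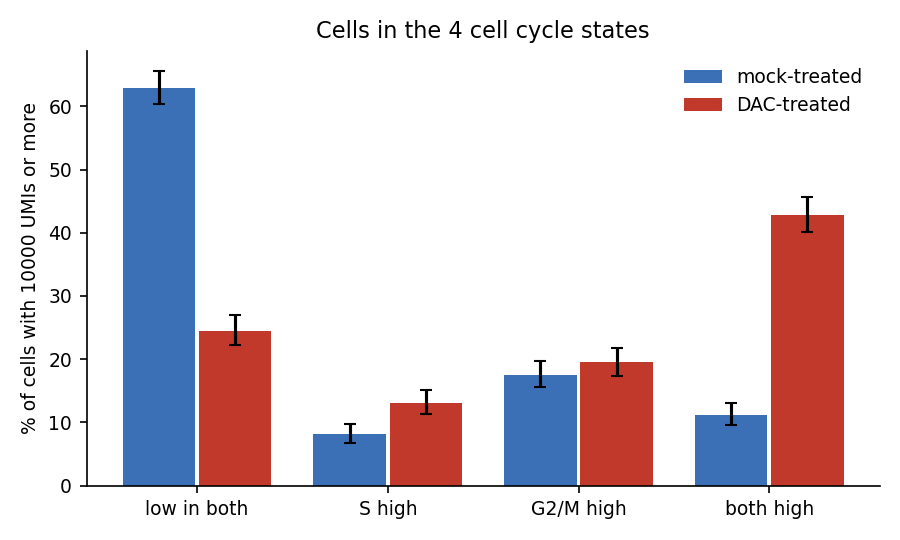
Share of thinned cells in each of the 4 states in the mock-treated (blue, 1388 cells) and DAC-treated (red, 1293 cells) libraries, with exact binomial 95% intervals. Most mock-treated cells were low in both pairs (63.0%), and the largest share of DAC-treated cells was high in both (42.8%).

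*DNMT1* followed the states in both libraries. In mock-treated cells, its mean was 0.609 UMIs per 10000 in cells low in both pairs, 1.07 in S-high cells, 1.64 in G2/M-high cells and 2.75 in cells high in both. In DAC-treated cells, the means were 1.04, 1.82, 2.14 and 2.81. From the lowest to the highest state *DNMT1* was thus 4.52-fold higher (3.97 to 5.14) in mock-treated and 2.70-fold higher (2.40 to 3.06) in DAC-treated cells, a flatter course after DAC.

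Within states, the ratio of *DNMT1* between DAC- and mock-treated cells was 1.71 (1.48 to 1.96) in cells low in both pairs and 1.70 (1.38 to 2.12) in S-high cells. It was 1.30 (1.14 to 1.49) in G2/M-high cells and 1.02 (0.917 to 1.14) in cells high in both. *DNMT1* was therefore higher in cells low in both pairs, and in the state that held the largest share of DAC-treated cells the difference was within counting error. The values depended on depth and, in the intermediate states, on how states were defined. Without thinning, where depth was no longer equal, the log2 ratio of *DNMT1* was 0.45 in cells low in both pairs. It was 0.77 there with thinned cells. With states from 20 S phase and 20 G2/M genes, the ratio was 1.62 (1.39 to 1.88) in cells low in both, 1.15 (0.863 to 1.52) in S-high and 0.987 (0.776 to 1.253) in G2/M-high cells. The intervals of the lowest and the highest state did not overlap. All genes measured in a state had median ratios between 1.01 and 1.18. Relative to these, *DNMT1* was 1.57-fold higher in cells low in both and 0.906-fold in cells high in both, where 59.4% of genes had a ratio at least as large. After median-of-ratios scaling, the log2 ratio of *DNMT1* in cells high in both was -0.19, compared with 0.03 by total UMIs.

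*UHRF1* also followed the states. Its mean in mock-treated cells was 0.0767 UMIs per 10000 in cells low in both pairs, 0.246 in S-high, 0.193 in G2/M-high and 0.455 in cells high in both, and in DAC-treated cells 0.132, 0.471, 0.413 and 0.679. From the lowest to the highest state it was 5.94-fold higher (4.19 to 8.42) in mock-treated and 5.12-fold higher (3.72 to 7.23) in DAC-treated cells, with overlapping intervals. This was steeper than for *DNMT1* beyond counting error in the DAC-treated library only. In contrast to *DNMT1*, the ratio between DAC- and mock-treated cells was above 1 beyond counting error in each of the 4 states. It was 1.73 (1.15 to 2.58) in cells low in both, 1.92 (1.23 to 3.06) in S-high, 2.14 (1.504 to 3.09) in G2/M-high and 1.49 (1.15 to 1.95) in cells high in both. With states from the lists of S phase and G2/M genes this did not hold, as the ratio was 0.504 (0.240 to 0.982) in S-high cells, of which 58 were DAC-treated, and 1.56 (0.829 to 2.93) in G2/M-high cells. Without thinning, the log2 ratio of *UHRF1* was 0.10 in S-high and 0.41 in G2/M-high cells, compared with 0.94 and 1.10 with thinned cells. Relative to the median gene of each state by the pairs, *UHRF1* was between 1.32- and 2.13-fold higher.

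**Figure D3:**
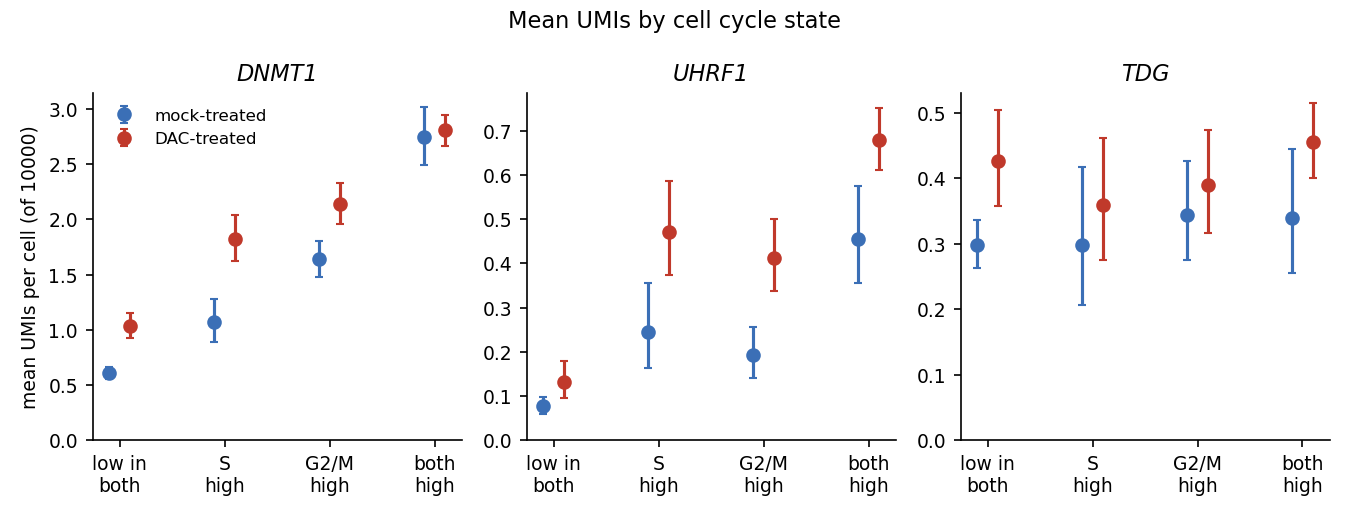
Mean UMIs per cell (of 10000) of *DNMT1*, *UHRF1* and *TDG* in the 4 states in mock-treated (blue) and DAC-treated (red) cells, with exact Poisson 95% intervals. *DNMT1* was higher after DAC in cells low in both pairs (0.609 and 1.04) and alike in cells high in both (2.75 and 2.81), *UHRF1* was higher in all 4 states, and *TDG* varied little between states.

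When both libraries were given the same mix of states, the ratio of *DNMT1* went from 1.98 (1.86 to 2.11) in thinned cells to 1.26 (1.18 to 1.36), a log2 ratio of 0.34 that is 34.3% of the unmatched one. The ratio of *UHRF1* went from 3.03 (2.59 to 3.56) to 1.68 (1.42 to 2.003), a log2 ratio of 0.75 that is 47.0% of the unmatched one. *DNMT1* had a lower matched ratio with finer states, with states from longer gene lists and without thinning, where depth was no longer equal. Its log2 ratio was 0.21 with 3 ranges of each pair, 0.18 with 6 ranges of each pair, 0.18 with states from 20 S phase and 20 G2/M genes and 0.16 without thinning, while that of *UHRF1* was 0.71, 0.69, 0.68 and 0.51. After median-of-ratios scaling the matched log2 ratio was 0.12 for *DNMT1* and 0.53 for *UHRF1*. State matching thus removed most of the *DNMT1* difference, and with the 4 states it left only 47.0% of the *UHRF1* log2 ratio. The part left was larger for *UHRF1* than for *DNMT1* under every definition of state that was tried.

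The matching was not complete. Within the state high in both pairs, DAC-treated cells still had more S pair UMIs, with a mean of 4.35 compared with 3.43, and *PCNA*, which is itself a target of p53, was 1.52-fold higher (1.35 to 1.72) there while *MCM5* was not (0.864, 0.737 to 1.02). Of the G2/M pair, *TOP2A* was 1.52-fold higher (1.32 to 1.76) and *CDK1* was lower (0.817, 0.714 to 0.938) in the same state. In the state low in both pairs, the S pair mean was also higher in DAC-treated cells, 0.379 compared with 0.272. *PCNA* was 1.35-fold higher (1.03 to 1.77) there, and *MCM5* had a ratio of 1.48 (0.964 to 2.24). After matching, *PCNA* and *TOP2A* still had ratios of 1.496 (1.37 to 1.64) and 1.28 (1.16 to 1.41), while *MCM5* and *CDK1* had 0.9498 (0.839 to 1.08) and 0.805 (0.726 to 0.893). Since states were set by the sum of each pair, opposite ratios within a pair are partly fixed by the matching. Whether differences in state that remained contributed to the *DNMT1* ratios within states or to the matched ratio was not tested. Median mitochondrial shares were also higher in DAC-treated cells in each state. In the state low in both pairs they were 18.2% of UMIs in mock-treated and 25.3% in DAC-treated cells. They were 17.4% and 19.5% in S-high cells, 16.1% and 20.8% in G2/M-high cells, and 15.6% and 16.3% in the state high in both. The part of these differences in the ratios was not tested. Without cells over 20% mitochondrial UMIs, the log2 ratio of *DNMT1* was 1.03 in the state low in both and -0.08 in the state high in both, compared with 0.77 and 0.03 with all thinned cells.

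**Figure D4:**
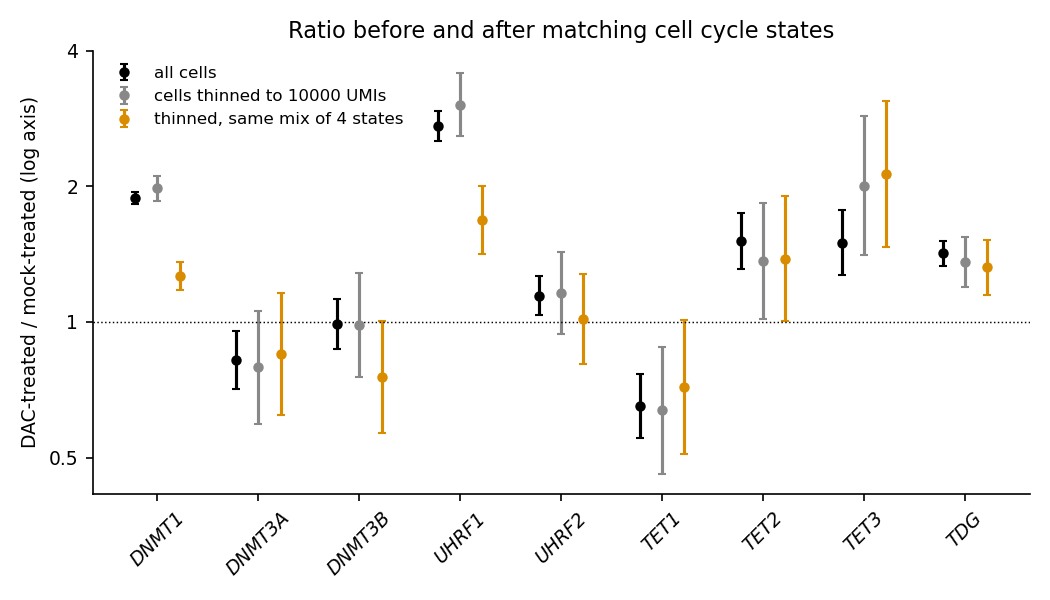
Ratio of DAC- to mock-treated cells (log axis) for the 9 genes with 100 UMIs or more, in all cells (black), in cells thinned to 10000 UMIs (gray) and in thinned cells with the same mix of 4 states (orange), with 95% intervals for counting error. Matching lowered the ratio of *DNMT1* from 1.98 to 1.26 and that of *UHRF1* from 3.03 to 1.68. The ratios of the *TET* genes and *TDG* stayed within the intervals of thinned cells. *TET3* was at 1.5003 in all cells and at 1.9996 after thinning, which also left out cells under 10000 UMIs.

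Cells were also compared without dividing them at a median, by the exact number of S pair UMIs in a thinned cell. These are the counts that also set the states, and the G2/M pair was not held fixed, so its mix could still differ. In cells without a *PCNA* or *MCM5* UMI, the mean of *DNMT1* was 0.705 (0.648 to 0.767) in 781 mock-treated cells and 1.23 (1.11 to 1.36) in 309 DAC-treated cells, a ratio of 1.74 (1.53 to 1.99). The ratio was 1.66 (1.45 to 1.90) at 1 UMI, 1.41 (1.19 to 1.68) at 2 UMIs and 0.991 (0.818 to 1.21) at 3 UMIs. Above that, at 4 UMIs and at 5 to 6 UMIs, it was 0.879 (0.685 to 1.14) and 0.996 (0.781 to 1.28), and at 7 to 9 UMIs, with 14 mock-treated cells, it was 1.20 (0.852 to 1.74). From 3 S pair UMIs on, the *DNMT1* levels of both libraries were therefore within counting error of each other. For *UHRF1*, the ratio was 2.29 (1.58 to 3.32) at 0 UMIs, 2.28 (1.59 to 3.30) at 1 UMI, 1.37 (0.944 to 2.01) at 2 UMIs and 1.65 (1.03 to 2.75) at 3 UMIs. In the sparser ranges above, it was 2.39 (1.10 to 6.15) at 4 UMIs, 1.03 (0.623 to 1.80) at 5 to 6 UMIs and 2.43 (0.991 to 7.74) at 7 to 9 UMIs, with no clear course.

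Sorted by the G2/M pair instead, *DNMT1* had a ratio of 1.98 (1.77 to 2.21) in cells without a *TOP2A* or *CDK1* UMI, 0.971 (0.804 to 1.18) at 2 UMIs and 1.247 (1.03 to 1.51) at 5 to 6 UMIs. Its ratio was thus near 1 at intermediate counts and again above 1 at higher counts of this pair. The S pair was not held fixed in this comparison. *UHRF1* had ratios of 2.61 (1.98 to 3.44), 1.77 (1.11 to 2.95) and 1.89 (1.13 to 3.32) at the same counts.

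**Figure D5:**
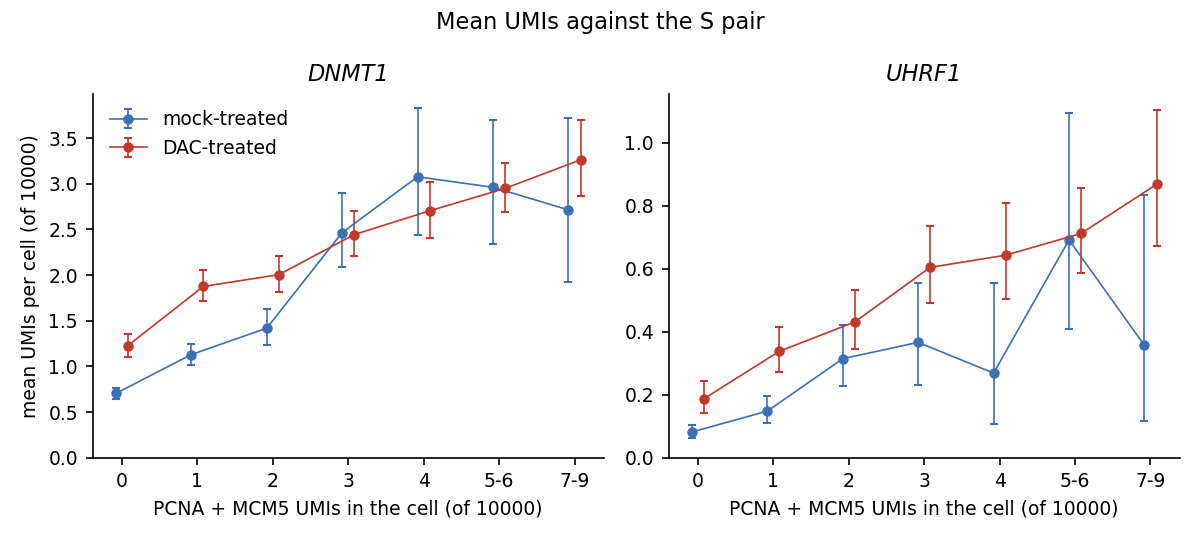
Mean UMIs per cell (of 10000) of *DNMT1* (left) and *UHRF1* (right) against the number of *PCNA* and *MCM5* UMIs in the cell, in mock-treated (blue) and DAC-treated (red) cells, with exact Poisson 95% intervals. *DNMT1* levels were within counting error of each other from 3 UMIs of the pair on, while most *UHRF1* means were higher after DAC; the last range, 7 to 9 UMIs, holds 14 mock-treated cells.

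Of the other genes, *TDG* was nearly level, with ratios between the highest and the lowest state of 1.14 (0.833 to 1.54) in mock-treated and 1.07 (0.863 to 1.33) in DAC-treated cells. After matching, its ratio between DAC- and mock-treated cells was 1.32 (1.15 to 1.52), close to 1.36 before. *TET3* likewise had 2.13 (1.46 to 3.10) after and 1.9996 (1.41 to 2.87) before matching, from 51 and 95 thinned UMIs. *TET2* had 1.38 (1.00 to 1.90) after matching, and *TET1* had 0.718 (0.510 to 1.01).

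*DNMT3B* was too sparse for a clear order of states. Relative to cells low in both, in mock-treated cells it was 1.28 (0.583 to 2.52) in S-high, 1.97 (1.248 to 3.06) in G2/M-high and 1.68 (0.934 to 2.89) in cells high in both. In DAC-treated cells the ratios were 1.53 (0.559 to 4.05), 3.20 (1.55 to 7.13) and 3.28 (1.71 to 6.90). With the same mix of states its ratio between DAC- and mock-treated cells was 0.754 (0.568 to 1.00), from 0.985 without matching. In mock-treated cells, *UHRF2* was 1.69-fold higher (1.08 to 2.59) and *TET1* lower (0.291, 0.0773 to 0.776, from 4 UMIs) in cells high in both than in cells low in both, and neither was beyond counting error in DAC-treated cells. *DNMT3A* had 0.849 (0.621 to 1.16) and *UHRF2* 1.01 (0.806 to 1.28) after matching.

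Counted over states, 4 of the 9 genes, *DNMT1*, *UHRF1*, *TET2* and *TDG*, had a higher mean in DAC-treated cells in each of the 4 states, compared with 36.8% of 10655 genes with 100 thinned UMIs. None of the 9 was 1.5-fold or more higher in each state, compared with 11.1%. By these counts the genes did not stand apart from the transcriptome.

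Genes with the most similar pattern across cells were found among 8154 genes with 1000 UMIs or more, by the lower of the Pearson r in both libraries (log-scaled thinned counts, 1388 and 1293 cells of 1 library each, without a test). For *DNMT1* they were *RRM2* (r of 0.44 in mock-treated and 0.43 in DAC-treated cells), *HMGB2* (0.48 and 0.43), *TUBA1B* (0.45 and 0.43), *MKI67* (0.43 and 0.42) and *HIST1H4C* (0.46 and 0.40). For *UHRF1* they were *ATAD2* (0.32 and 0.29), *CLSPN* (0.27 and 0.30), *RRM2* (0.26 and 0.27), *CDT1* (0.30 and 0.25) and *HELLS* (0.26 and 0.24). *DNMT1* and *UHRF1* had an r of 0.20 and 0.22 with each other, a weak value from sparse counts, and *TDG* had values of -0.01 and 0.06 with *DNMT1*.

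Among DAC-treated cells, cells were ordered by the summed UMIs of 30 cancer-testis genes, germline genes that are mostly silent in somatic cells. The sum measures reactivation only in part, since *MAGEA3* and *MAGEB2* already had 2776 and 3317 UMIs in mock-treated cells, and 5384 and 6568 in DAC-treated cells. Divided by rank into 3 groups of 431 cells, cells had means of 1.65, 5.01 and 21.8 such UMIs. *DNMT1* had means of 1.95, 2.20 and 2.19 UMIs in these groups, and the ratio of the highest to the lowest group was 1.12 (1.02 to 1.23). *UHRF1* was lower with more of these UMIs, with means of 0.522, 0.485 and 0.390 and a ratio of 0.747 (0.608 to 0.916). *TDG* was higher, with means of 0.381, 0.394 and 0.492 and a ratio of 1.29 (1.05 to 1.59). *TOP2A* was lower in the group with the most (0.802, 0.709 to 0.906), but *PCNA* (1.07, 0.965 to 1.19), *MCM5* (1.08, 0.917 to 1.27) and *CDK1* (1.05, 0.900 to 1.22) were not, while the share of cells low in both pairs was 26.5% there and 24.4% in the group with the least. *DNMT1* was thus slightly higher, and *UHRF1* lower, in the group with the most cancer-testis UMIs than in the group with the least.

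By UMIs of *CDKN1A*, the p53-induced inhibitor of cyclin-dependent kinases, *DNMT1* did not differ beyond counting error among DAC-treated cells. The ratio of the highest to the lowest group was 0.983 (0.895 to 1.08) for *DNMT1* and 0.888 (0.727 to 1.08) for *UHRF1*, although *PCNA* was higher (1.16, 1.05 to 1.29) and *TOP2A* lower (0.781, 0.689 to 0.885) in the highest group. In mock-treated cells the group with the most *CDKN1A* had 1.40-fold more *DNMT1* (1.23 to 1.59), and there *PCNA* (1.63-fold, 1.36 to 1.96) and *CDK1* (1.79-fold, 1.46 to 2.20) were higher too. The lowest and middle mock-treated groups had means of 0 and 0.296 *CDKN1A* UMIs, so many tied cells were split between them. From the lowest to the highest group, *DNMT1* means were 0.883, 1.09 and 1.24 UMIs.

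Some of these genes also differed with depth and RNA quality. In the mock-treated library *DNMT1* had 1.96-fold more UMIs per 10000 (1.72 to 2.23) in the group of cells with the most UMIs than in the group with the fewest, and *UHRF1* 1.72-fold more (1.22 to 2.43). *TET1* was lower there (0.378, 0.214 to 0.643), and the intervals of the other 6 genes with 100 UMIs or more included 1. The state genes were higher, from 2.20-fold (1.83 to 2.66) for *PCNA* to 5.39-fold (4.26 to 6.89) for *CDK1*. In the DAC-treated library the ratios were 1.30 (1.18 to 1.43) for *DNMT1* and 1.12 (0.909 to 1.38) for *UHRF1*. Cells with fewer than 10000 UMIs or over 50% mitochondrial UMIs made up 27.2% of mock-treated and 36.04% of DAC-treated cells but 5.64% and 7.79% of the UMIs. In them *DNMT1* was at 65.8 (56.6 to 75.9) and 115 (106 to 125) CPM, compared with 118 and 225 in the other cells, so the direction was the same in both groups of cells. *TET3* was instead higher in these cells of the DAC-treated library, at 11.5 CPM (8.63 to 15.1) compared with 6.56 (5.89 to 7.27). In the mock-treated library it was at 5.69 (3.25 to 9.23) and 4.56 (3.98 to 5.22). Without these cells the log2 ratio of *TET3* was 0.52, compared with 0.59 in all cells.

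Partners of the 10 genes were read from lists by role, each beside the 31.0% of all genes that were higher and the 14.2% that were lower by 1.5-fold. Of 12 partners of maintenance methylation, 4 were higher and 1 was lower, with a median log2 ratio of 0.32. *CHAF1A*, a subunit of the chromatin assembly factor at the fork, was 2.75-fold higher (2.58 to 2.93), the replicative DNA ligase *LIG1* 1.75-fold, the remodeler *HELLS* 1.58-fold and the corepressor *TRIM28* 1.53-fold. *CDCA7L*, related to a partner of HELLS, was lower, with a ratio of 0.631 (0.591 to 0.674). Of 11 readers of methylated CpG sites, 3 were higher and 1 was lower, with a median log2 ratio of -0.18. They were *MBD1* (2.79-fold, 2.53 to 3.07), *MBD3* (2.18-fold), *ZBTB38* (1.55-fold) and, lower, *MBD6* (0.659).

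On the side of demethylation, 4 of 8 TET partners with 100 UMIs or more were lower and none was higher, with a median log2 ratio of -0.61, the lowest of the lists by role. *IDH1* (0.344, 0.318 to 0.373) and *IDH2* (0.483, 0.445 to 0.524), the enzymes that make the TET cosubstrate 2-oxoglutarate, *D2HGDH* (0.485, 0.431 to 0.545), which removes an inhibitor of it, and *OGT* (0.588, 0.545 to 0.634), a glycosyltransferase that binds TET proteins, were lower. Only 1 of the 8 had a ratio above 1. Base excision repair, which follows TDG, had 1 of 11 genes higher, *PARP1* (1.65-fold, 1.60 to 1.69), and 1 lower, *NEIL1* (0.436, 0.396 to 0.479), with a median log2 ratio of 0.05. Among genes of the methyl donor and folate cycles, *TYMS*, which is also in the S phase list, was 2.15-fold higher (2.08 to 2.22). *AHCYL1* (0.448, 0.426 to 0.471) and *MAT2A* (0.583, 0.561 to 0.605), which makes the methyl donor itself, were lower.

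Listed proliferation genes were mostly higher, beside the 31.0% of all genes that were higher and the 14.2% that were lower by 1.5-fold. The median log2 ratio of all genes was 0.24. Of 20 S phase genes, 15 were higher by 1.5-fold and 0 were lower, with a median log2 ratio of 1.01, led by *CLSPN* (3.71-fold), *GINS2* (3.40-fold), *RRM2* (3.35-fold) and *CCNE2* (3.24-fold). Of 20 G2/M genes, 18 were higher and 0 were lower, with a median of 0.94, led by *CDC20* (2.99-fold), *AURKA* (2.94-fold), *DLGAP5* (2.52-fold) and *UBE2C* (2.35-fold). The *DNMT1* log2 ratio of 0.91 lay close to both medians, and the *UHRF1* log2 ratio of 1.44 lay above them.

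Other lists give the setting. Of 20 p53 targets, 8 were higher, led by *PHLDA3* (3.29-fold), *MDM2* (2.20-fold), *FAS* (1.88-fold) and *CDKN1A* (1.86-fold), and 4 were lower, *GDF15* (0.342), *SESN2* (0.394), *BBC3* (0.413) and *TNFRSF10B* (0.645), beside 31.0% and 14.2% of all genes. Each of the 30 cancer-testis genes was detected after DAC, and 18 of them had 0 UMIs in mock-treated cells, among them *MAGEA4* with 8160 and *VCX3B* with 7903 UMIs after DAC. With 100 UMIs or more, 13 of 25 such genes were at 0 in mock-treated cells, beside 202 of all 13547 genes. All of these passed the minimum through their DAC-treated counts alone, so no conclusion is drawn from the 2 counts. *VCX3A* and *PAGE1*, each with 1 UMI in mock-treated cells, had ratios of 4535 (814 to 179157) and 3352 (601 to 132415). Of 14 housekeeping genes, 2 were higher, *TFRC* (2.18-fold) and *ACTB* (2.13-fold), and their median log2 ratio was 0.19, close to the 0.24 of all genes.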

How the data were processed

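Single-cell RNA-seq (10x Genomics 3' chemistry) was available for 1 mock- and 1 DAC-treated library of HCT116 cells. The submitters' processing notes name Cell Ranger and hg38, and the annotation release is not given in the sources used here. The authors deposited raw UMI counts, integers for every gene in every cell. All deposited cells were used, and doublets were not called, since doublets of 1 line carry no marker. Both libraries shared 12 barcodes. Both libraries listed the same Ensembl identifiers in the same order. Listed genes were taken by name, and only names with a single row were used, since 24 names were repeated.

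UMIs were summed over cells and divided by the library total. Ratios have Clopper-Pearson intervals on the share of the DAC-treated count, sums have Poisson intervals, and state-matched ratios have delta-method intervals, all at 95%. Cells were thinned by drawing 10000 UMIs without replacement. For state matching, means per state were weighted by the mean share of both libraries. Genes were named by a fixed rule: the 10 genes, the 4 state genes, up to 4 genes per list and direction past 1.5-fold, and the 5 most similar genes of *DNMT1* and *UHRF1*. Gene positions were taken from GENCODE release 44. Genes and lists were chosen with earlier results of these data known. Other cell filters, scalings, depths and definitions of state were tried. Python 3.11.15, numpy 2.4.6, scipy 1.17.1 and matplotlib 3.10.9 were used, and the computations were tested on simulated data. For the methyl donor and folate list, 1 result is not reported here, so no count or median of that list is given.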

Additional observations from a re-analysis of the deposited data

How the results depend on the processing

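*DNMT1* and *UHRF1* were higher in DAC-treated cells under all 8 alternatives for all cells and all 10 for matched states, including the removal of shared barcodes and the 6 ranges, both chosen after seeing the data. Their all-cell log2 ratios were 1.02 and 1.67 without cells over 20% mitochondrial UMIs, 0.97 and 1.62 without the 5% of cells with the most UMIs, 0.98 and 1.60 after thinning and 0.67 and 1.21 with median-of-ratios scaling. The cause was not tested. The number of genes 1.5-fold higher was 2 without cells under 10000 UMIs or over 50% mitochondrial UMIs, 2 with median-of-ratios scaling, 2 with per-cell CPM averaged over cells and 1 at 2-fold. The number lower was 0 without cells over 20% mitochondrial UMIs, 0 without mitochondrial genes in the total, 2 with per-cell CPM averaged over cells and 0 at 2-fold. The *UHRF2* log2 ratio turned to -0.045 with median-of-ratios scaling and -0.015 with per-cell CPM averaged.

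The matched *DNMT1* log2 ratio was 0.18 with the S phase and G2/M lists, 0.21 with 3 ranges of each pair, 0.21 at 20000 UMIs, 0.16 without thinning, 0.12 with median-of-ratios scaling and 0.18 with 6 ranges, and at most 0.37, with states by the medians of mock-treated cells. That of *UHRF1* stayed between 0.51 and 0.88. With states from the lists, the *DNMT1* log2 ratio was -0.019 in G2/M-high cells, and that of *UHRF1* was -0.99 in S-high cells (ratio 0.504, 0.240 to 0.982), a state with 58 DAC-treated cells. Without thinning, *UHRF1* had 0.10 in S-high and 0.41 in G2/M-high cells. No paired analysis was possible because each condition had 1 library, so no replicate could be left out. Genes below 10 CPM, *DNMT3A*, *DNMT3B* and the *TET* genes, had under 130 thinned UMIs per library, too few to compare states closely.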
